A study of Mus musculus with 12 samples.

Results

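The retinoic acid receptors (Rara, Rarb, Rarg) and retinoid X receptors (Rxra, Rxrb, Rxrg) are the 6 nuclear receptors through which vitamin A derivatives act on transcription. They were followed here with every probe on the array whose transcript accession belongs to one of these genes, which gave 10 probes for 6 of the 20660 genes named on the array. The samples were mammary tumours of MMTV-wnt1 mice on the FVB background, in which the mouse mammary tumour virus promoter drives Wnt1, with genotype Rarb -/- (KO) or Rarb +/+ (WT). Laser capture separated each tumour into stroma and epithelium. The 4 groups were KO stroma, WT stroma, KO epithelium and WT epithelium, each with 3 tumours, and both compartments of a tumour carry the same number (KO 1, 3 and 4, WT 1, 2 and 3). The amplified product of each sample, in Cy3, was hybridised with a universal mouse reference RNA, in Cy5, on 12 two-colour arrays. Age, sex and the way the Rarb allele was made are not given in the sources used here.

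Retinoic acid receptors bind DNA as heterodimers with retinoid X receptors, typically at direct repeats of a short half-site. Without ligand the pair holds corepressors such as Ncor1, and with retinoic acid it takes up coactivators. Retinoid X receptors also pair with the vitamin D, thyroid hormone, peroxisome proliferator-activated and liver X receptors, so that their level bears on several hormone pathways. Rarb is itself a classical retinoic acid target, through an element in the promoter of its beta2 transcript, and it is often described as lost or silenced in human breast carcinoma.

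That element is shown first because Rarb is both the gene knocked out and a target of the receptors studied. The promoter window of Rarb in RefSeq (GRCm38.p6, chr14:16575427-16575726, minus strand, from 250 bases before to 50 after the transcript start) reads as follows, 5′ to 3′, with the repeat in capitals.
Rarb: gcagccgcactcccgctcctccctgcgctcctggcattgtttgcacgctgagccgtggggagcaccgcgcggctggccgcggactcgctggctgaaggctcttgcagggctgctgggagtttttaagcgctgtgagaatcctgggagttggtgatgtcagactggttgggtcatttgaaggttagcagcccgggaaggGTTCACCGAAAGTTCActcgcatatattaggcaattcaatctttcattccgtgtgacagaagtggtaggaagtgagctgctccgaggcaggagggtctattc
The capitals lie at positions -52 to -37 from the start. The search asked for GGTCA or GTTCA, then any 6 bases, then GGTCA or GTTCA, on both strands, which covers direct repeats of the half-site spaced by 5 bases. Of 32851 promoter windows of the same length, 81 hold such a match (0.247%). Among the receptors only the Rarb window holds one, and the windows of Rara, Rarg, Rxra, Rxrb and Rxrg do not. A match is a description of these letters, in the reference genome and not in the FVB strain.

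All 6 receptors were measurable. Values below are log2 ratios of tumour sample over reference after loess normalization within each array. A ratio of 0 thus means the usual ratio of probes of similar brightness on that array. Above or below the reference is meant in this sense and not as raw signal. For Rxrb in KO stroma 1, background-subtracted Cy3 was 11499 and Cy5 32939, at a log2 ratio of 0.72. The ratios compare samples for a gene but not one gene with another. A gene is represented by its brightest probe among those well above background in Cy3 on 3 or more of the 12 arrays. The probes chosen were well above background in Cy3 on all 12 arrays for Rara, Rarb, Rarg, Rxrb and Rxrg, and on 11 for Rxra, the exception being KO epithelium 1. Of the 10 probes 9 passed this filter, the exception being a second Rarb probe that was above background on no array. No spot was saturated, and the number of arrays limits the precision.

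Rarb, the gene disrupted in KO mice, was not detectably lower on KO arrays. Its log2 ratio was 1.83, 2.09 and 0.57 in KO stroma 1, 3 and 4, against -0.01, -0.29 and 1.37 in WT stroma 1, 2 and 3. In epithelium it was -1.13, 1.36 and 0.50 in KO tumours 1, 3 and 4, against -0.76, 0.85 and 0.77 in WT tumours 1, 2 and 3. KO and WT overlapped in both compartments. The background-subtracted Cy3 intensity of the probe (A_55_P1962154) ran from 269 to 1365 in KO stroma, 144 to 589 in WT stroma, 98.6 to 813 in KO epithelium and 188 to 633 in WT epithelium. No file used here gives the position of the probe relative to the part of Rarb altered in KO mice. The probe is therefore no check of the genotype labels and reports only the RNA that binds it.

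The second Rarb probe (A_55_P2084807) gave background-subtracted Cy3 intensities of 0.643 to 24.4 over the 12 arrays and is not well above background in either channel on any of them. It therefore measures neither a KO nor a WT level.

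Rara, the most widely expressed of the retinoic acid receptors, stood near the reference or below it. Its log2 ratio was -0.50, 0.41 and 0.01 in KO stroma 1, 3 and 4, against -0.30, -0.84 and 0.13 in WT stroma 1, 2 and 3. In epithelium it was -0.90, -0.30 and -0.57 in KO tumours 1, 3 and 4, against -0.34, -0.52 and -1.81 in WT tumours 1, 2 and 3. The genotypes overlapped in both compartments, and WT epithelium 3 was the lowest of the 12 arrays.

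Rarg, the receptor best known from skin and skeletal tissue, was below the reference on all 12 arrays. It gave -1.20, -1.32 and -0.95 in KO stroma 1, 3 and 4, against -1.56, -1.78 and -0.61 in WT stroma 1, 2 and 3. In epithelium it gave -1.35, -0.27 and -0.51 in KO tumours 1, 3 and 4, against -1.24, -0.73 and -1.83 in WT tumours 1, 2 and 3. Here too the genotypes overlapped in both compartments, and WT epithelium 3 was again the lowest array, after loess. Background-subtracted Cy3 and Cy5 there were 1174 and 6248, beside 837 and 7419 in WT stroma 2, so these signals do not place it lowest.

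Rxra, the main heterodimer partner in epithelia such as skin and liver, was highest in WT epithelium. In stroma it gave log2 ratios of 0.02, -0.14 and 0.05 in KO tumours 1, 3 and 4, against 0.10, 0.04 and 0.36 in WT tumours 1, 2 and 3. In epithelium it gave -0.38, 0.54 and -0.02 in KO tumours 1, 3 and 4, against 0.82, 0.83 and 0.41 in WT tumours 1, 2 and 3. The epithelial groups overlapped only through KO 3, which lay above WT 3. The Rxra probe (A_55_P2074331) is dim, with background-subtracted Cy3 intensities from 16.7 to 177, and the lowest of these is the KO epithelium 1 array where it was not well above background.

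Rxrb, a broadly expressed partner, was above the reference on all 12 arrays. It gave 0.72, 0.93 and 1.70 in KO stroma 1, 3 and 4, against 0.74, 0.96 and 1.03 in WT stroma 1, 2 and 3. In epithelium it gave 0.79, 1.21 and 1.24 in KO tumours 1, 3 and 4, against 0.88, 1.07 and 0.26 in WT tumours 1, 2 and 3. All 4 groups overlapped, and WT epithelium 3 was the lowest array for this gene as well, after loess. Background-subtracted Cy3 and Cy5 there were 32016 and 36256, beside 29502 and 40268 in WT epithelium 1. These signals before loess do not place WT epithelium 3 lowest.

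Rxrg, the retinoid X receptor best known from muscle and brain, was also above the reference on every array and varied least. It gave 0.43, 0.65 and 0.76 in KO stroma 1, 3 and 4, against 0.63, 0.69 and 0.49 in WT stroma 1, 2 and 3. In epithelium it gave 0.56, 0.53 and 0.50 in KO tumours 1, 3 and 4, against 1.09, 0.93 and 0.89 in WT tumours 1, 2 and 3. The WT epithelium values lay above those of the other 3 groups, and KO epithelium did not overlap with WT epithelium.

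**Figure D1:**
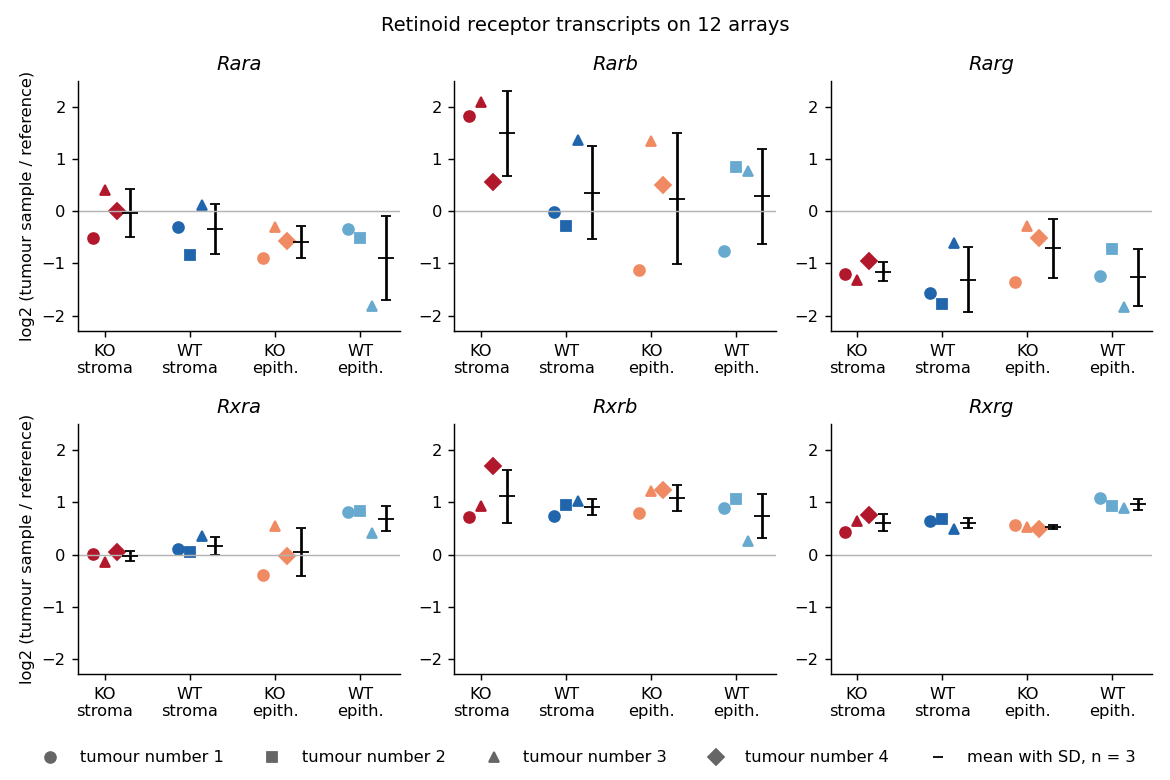
Log2 ratio of tumour sample over reference (y axis) for the brightest probe of each receptor in the 4 groups (x axis), 1 symbol per array with its shape giving the tumour number, and mean with SD beside it (n = 3). Rarb spreads over more than 2 log2 units in KO epithelium, -1.13 to 1.36, while Rxrg in KO epithelium spans 0.50 to 0.56.

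The receptors differed in how far arrays of a group lay apart. The SD within groups (pooled over the 4 groups, 8 degrees of freedom) was 0.98 log2 units for Rarb, larger than for 94.7% of the 13269 genes with a value on every array. It was 0.54 for Rara and 0.51 for Rarg, above 77.4% and 74.6% of genes. It was 0.36 for Rxrb, 0.28 for Rxra and 0.11 for Rxrg, above 54.3%, 35.9% and 2.10% of genes. The median gene had an SD of 0.34. By their brightest probes all 3 retinoic acid receptors thus lay above the median spread and Rxra and Rxrg below it. This depended on the probe for Rara and Rxrg. The SD of a group was 0.16 to 0.29 with the second Rara probe and 0.48 to 1.43 with the second Rxrg probe, both described below. This spread sets what a comparison of 3 tumours with 3 can show, and the precision ranges from about 0.3 log2 units for Rxrg to over 1.5 for Rarb.

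**Figure D2:**
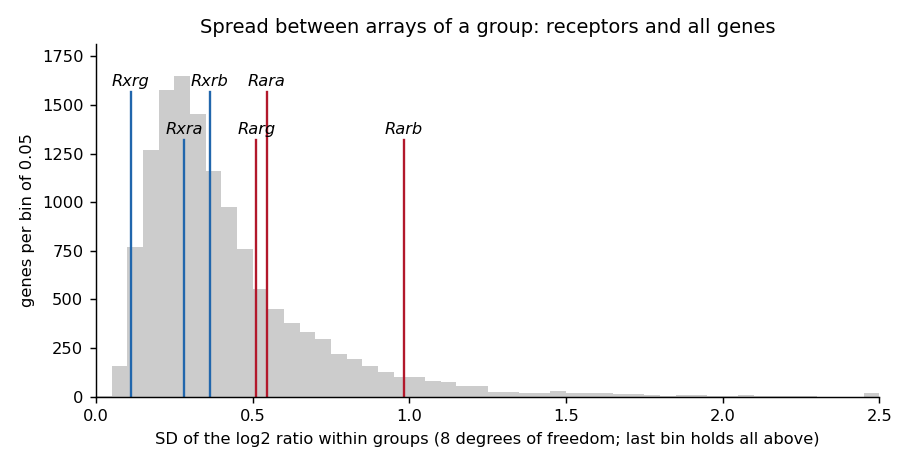
Number of genes (y axis, bins of 0.05) by the SD of the log2 ratio between arrays of a group (x axis), over 13269 genes. Lines mark the brightest probe of each receptor, retinoic acid receptors in red and retinoid X receptors in blue. Rxrg (0.11) stands at the low end and Rarb (0.98) far in the upper tail.

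The first question was whether loss of Rarb went with a change in the other receptors. In stroma none of the 6 passed an adjusted p of 0.05 (limma with Benjamini-Hochberg adjustment over 13351 genes), where 6.37% of all genes did, and none had an unadjusted p under 0.05 either, where 21.5% did. KO and WT stroma overlapped for every receptor, while they did not for 26.3% of all genes. Rarb had the largest difference, 1.14 (95% interval -0.43 to 2.71, limma adjusted p = 0.402), the KO mean being 1.50 ± 0.81 and the WT mean 0.36 ± 0.89 (SD, n = 3 each). Rara differed by 0.31 (-0.59 to 1.21), Rarg by 0.16 (-0.69 to 1.01), Rxra by -0.19 (-0.71 to 0.32) and Rxrb by 0.21 (-0.42 to 0.84), with limma adjusted p from 0.693 to 0.857. Rxrg differed by 0.01 (-0.31 to 0.33, limma adjusted p = 0.985), which is the tightest interval of the set. For this probe it leaves no room for a 2-fold change. The interval of a second, dimmer Rxrg probe described below, -1.21 to 2.45, does include one. Intervals for Rara, Rarb and Rarg do include a 2-fold change. Leaving out 1 array moved Rara to between 0.058 (without WT stroma 2) and 0.55 (without KO stroma 1). Rarg was at -0.070 without WT stroma 2 and Rxrb at -0.084 without KO stroma 4, and median centring in place of loess turned the sign of Rarg, Rxrb and Rxrg. The median difference was 0.18 over the receptors and -0.01 over all genes tested.

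In epithelium none of the 6 passed the adjusted threshold either, where 0.00749% of all genes did, that is 1 gene of 13351. At an unadjusted p under 0.05 there were 2 receptors, Rxra and Rxrg, and 8.1% of all genes. Rxrg differed by -0.44 on the log2 scale, lower in KO epithelium (95% interval -0.76 to -0.12, unadjusted p = 0.0118, limma adjusted p = 0.611). KO epithelium averaged 0.53 ± 0.03 and WT epithelium 0.97 ± 0.11 (SD, 3 arrays each). Its groups did not overlap, which held for 14% of all genes and for no other receptor in this comparison. A second, dimmer Rxrg probe described below gave 0.38, and both Rxrg probes averaged gave -0.03. Rxra differed by -0.64 (-1.16 to -0.12, unadjusted p = 0.0198, limma adjusted p = 0.611), with means of 0.04 ± 0.47 in KO and 0.68 ± 0.24 in WT. Over the alternatives run, the Rxra difference was -1.22 in the authors' deposited table, -1.13 with Agilent's processed signals and -0.30 with both probes averaged, and none passed. Rxra and Rxrg both fail the correction over all genes and are reported as such. Rara differed by 0.30 (-0.60 to 1.20), Rarb by -0.04 (-1.61 to 1.53), Rarg by 0.55 (-0.30 to 1.40) and Rxrb by 0.34 (-0.29 to 0.97), with limma adjusted p from 0.725 to 0.994. Without WT epithelium 3 the difference of Rara turned to -0.16 and that of Rarb to 0.20. That of Rarb was 0.64 without KO epithelium 1 and 0.24 without WT epithelium 2. The median difference was 0.13 over the receptors and 0.03 over all genes.

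KO arrays occupy 1 row of each slide and WT arrays the other, and for these ratios genotype and row position cannot be told apart. The reference channel, which holds the same RNA on every array, was compared in the same way for the same probes. KO minus WT in that channel was 0.07 for Rxrg and -0.04 for Rxra in epithelium, -0.03 for Rarb and -0.20 for Rarg in stroma, and between -0.07 and 0.17 for the others.

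The second question was whether the receptors differ between stroma and epithelium of the same tumour. In KO tumours none of the 6 passed the adjusted threshold, where 20% of all genes did, and none had an unadjusted p under 0.05, where 34.9% did. The compartments overlapped for every receptor, while they did not for 36.9% of all genes. Rarb was higher in stroma in 3 of 3 KO tumours, by 2.96, 0.73 and 0.07 in tumours 1, 3 and 4. The mean was 1.25 (95% interval -0.17 to 2.68, limma adjusted p = 0.187), and it was 0.40 without tumour 1 and 1.84 without tumour 4. Rara was higher in stroma in 3 of 3 KO tumours too, by 0.40, 0.71 and 0.57, with a mean of 0.56 (-0.42 to 1.54, limma adjusted p = 0.380). The same sign in all 3 KO tumours was found for 54.3% of all genes. Rarg, Rxra, Rxrb and Rxrg had mixed signs, with means of -0.44, -0.07, 0.03 and 0.08 and limma adjusted p from 0.515 to 0.937.

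In WT tumours none of the 6 passed, where 0.00749% of all genes did, and again none had an unadjusted p under 0.05, where 8.82% did. Rxrg was lower in stroma in 3 of 3 WT tumours, by -0.45, -0.24 and -0.39 in tumours 1, 2 and 3, with a mean of -0.36 (95% interval -0.74 to 0.01, limma adjusted p = 0.572). Rxra was lower in stroma in 3 of 3 WT tumours, by -0.72, -0.79 and -0.04, with a mean of -0.52 (-1.13 to 0.10, limma adjusted p = 0.629). For these 2 receptors the WT compartments did not overlap, which held for 10.5% of all genes, and the same sign in all 3 WT tumours for 31.2%. Rara, Rarb, Rarg and Rxrb had mixed signs, with means of 0.55, 0.07, -0.05 and 0.17. Without WT tumour 3 the mean of Rara turned to -0.14 and that of Rarb to -0.19. Stroma and epithelium lie on separate slides, so compartment and slide cannot be told apart. In the reference channel, stroma minus epithelium of WT tumours was 0.27 for Rxra and 0.21 for Rxrg. The sample channel gave -0.24 and -0.15 for them, so part of both ratio differences lies in the reference channel. For the other receptors the reference channel gave -0.16 to 0.31 in WT tumours. In KO tumours it gave -0.21 (Rarb) to 0.35 (Rxra). The part of the slide was not tested.

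**Figure D3:**
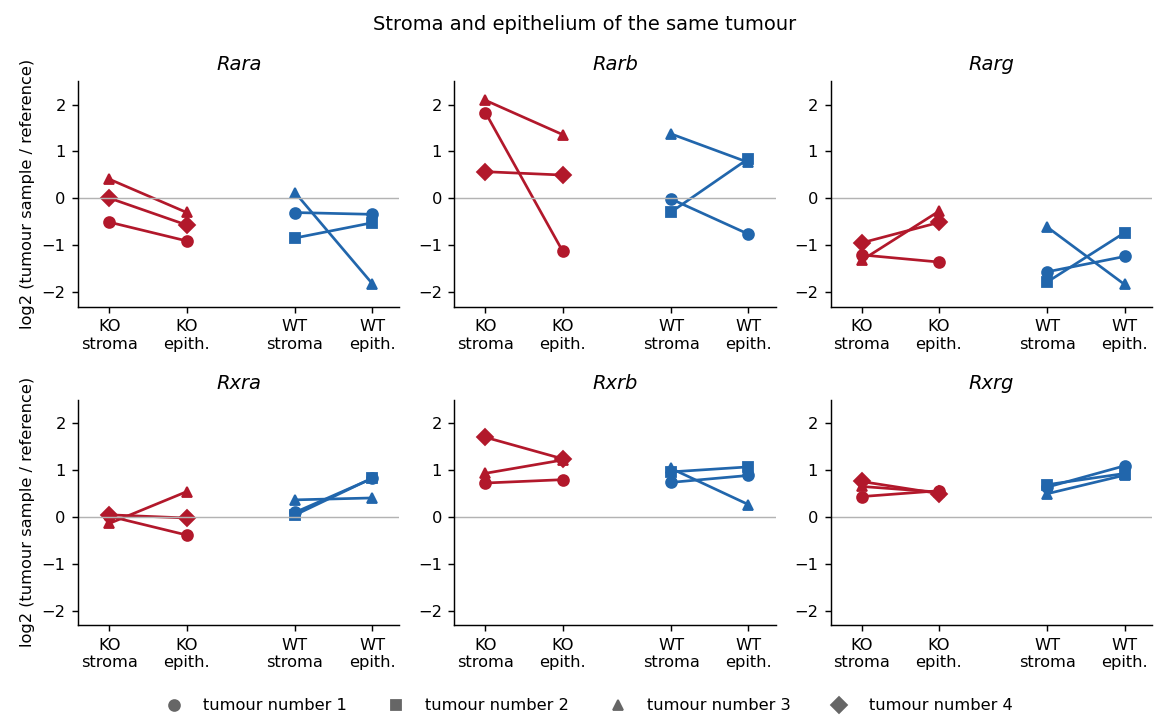
Log2 ratio of tumour sample over reference (y axis) in stroma and epithelium (x axis) of the same tumour, 1 line per tumour, KO in red on the left and WT in blue on the right of each panel. Rara and Rarb are higher in stroma on every KO line, and Rxra and Rxrg are lower in stroma on every WT line.

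The last comparison asked whether the KO effect differs between stroma and epithelium. None of the 6 receptors passed, as did 0% of all genes in limma, and none had an unadjusted p under 0.05, where 18.1% of all genes did. The difference of the KO effect, stroma minus epithelium, was 1.18 for Rarb (95% interval -0.83 to 3.19, limma adjusted p = 0.501). It was 0.33 without KO tumour 1, 0.58 without WT tumour 2 and 1.77 without KO tumour 4. It was 0.45 for Rxrg (-0.08 to 0.98, limma adjusted p = 0.340) and 0.45 for Rxra (-0.43 to 1.32, limma adjusted p = 0.560). It was 0.01 for Rara, -0.39 for Rarg and -0.14 for Rxrb, with limma adjusted p from 0.776 to 0.997.

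**Figure D4:**
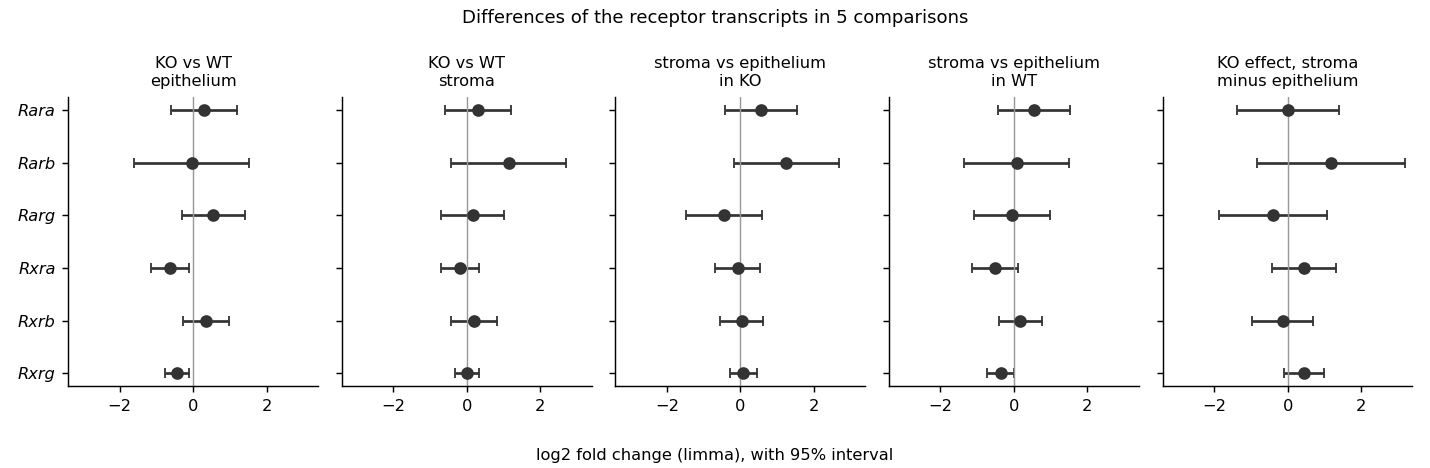
Log2 fold change with its 95% interval from limma (x axis) for each receptor (rows) in the 5 comparisons (panels). Intervals are narrowest for Rxrg and widest for Rarb, and those that leave out 0 are Rxra and Rxrg in KO against WT epithelium, neither of which passed after adjustment.

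Ordered by group mean, Rarb and Rara were highest in KO stroma (1.50 and -0.03) and Rarg in KO epithelium (-0.71), with every neighbour in the order overlapping the next. Rxrb was at 1.12 in KO stroma, 0.91 in WT stroma, 1.08 in KO epithelium and 0.74 in WT epithelium, also with overlapping neighbours. Rxra and Rxrg were highest in WT epithelium (0.68 and 0.97), and the range of that group lay clear of the next in order, WT stroma for Rxra (0.17) and KO stroma for Rxrg (0.61). For Rxra the range of WT epithelium, 0.41 to 0.83, did overlap that of KO epithelium, -0.38 to 0.54. A second Rxra probe, described below and above background on 3 arrays, had its lowest mean in WT epithelium (-0.50).

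Rara, Rarb, Rxra and Rxrg have a second probe. For Rara the second probe (A_55_P2095342) was above background on all 12 arrays and spread from -0.20 to 0.58, against -1.81 to 0.41 for the brighter one. It gave 0.15 for KO against WT epithelium and 0.09 for stroma, the same directions as the brighter probe and closer to 0. On WT epithelium 3, where the brighter Rara probe was at -1.81, it was at -0.09. For Rxra the second probe (A_51_P307370) was above background on 3 arrays, 1 each of KO stroma, WT stroma and WT epithelium. It gave 0.04 for KO against WT epithelium, where the brighter probe gave -0.64. For stroma against epithelium in WT tumours it gave 0.35, positive in 3 of 3 tumours, where the brighter probe gave -0.52. The Rxra differences given above thus rest on the brighter probe alone. The second Rarb probe was not above background on any array. For Rarb and Rxra, therefore, agreement between the probes of a pair cannot be read.

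The second Rxrg probe (A_51_P513311) behaved unlike the first. It was above background on 6 arrays, where its background-subtracted Cy3 intensity was 90.8 and 563 in KO stroma 1 and 3, 290 and 42.9 in WT stroma 2 and 3, 157 in KO epithelium 3 and 71.4 in WT epithelium 2. On the other 6 arrays it was at most 13.9, and the reference channel was not above background on any array. Its high arrays belong to all 4 groups, and the brighter Rxrg probe spans only 0.43 to 0.93 on those same arrays. Its difference between KO and WT was 0.62 (95% interval -1.21 to 2.45) in stroma and 0.38 (-1.45 to 2.21) in epithelium, and limma adjusted p over all kept probes were 0.748 and 0.928. Adipocyte markers moved with it in part. The mean log2 ratio of 6 measured of 7 listed adipocyte markers was highest in KO stroma 3 (5.57) and WT epithelium 2 (3.44), then KO stroma 1 (1.65), WT stroma 2 (1.54) and KO epithelium 3 (1.27), and was between -0.68 and 0.88 on the other arrays. Their part in the Rxrg signal was not tested. Averaging both Rxrg probes moved the epithelial difference between KO and WT to -0.03.

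**Figure D5:**
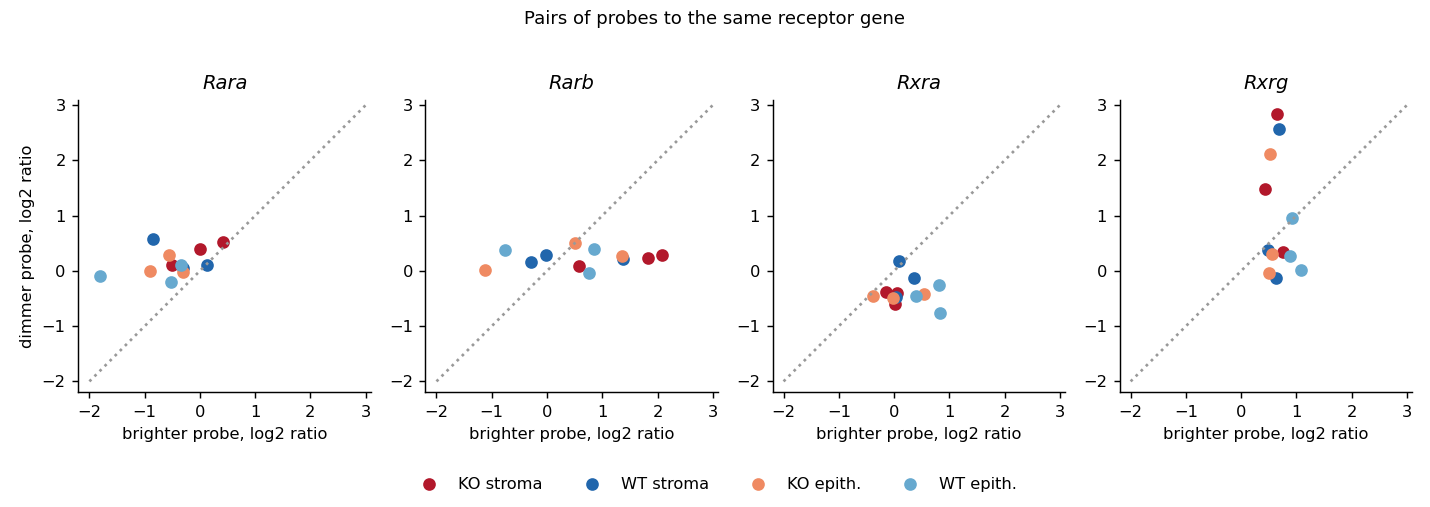
Log2 ratio of tumour sample over reference of the dimmer probe (y axis) against the brighter probe (x axis) for the 4 receptors with a pair of probes, 1 point per array, coloured by group, with the dotted line marking equal values. The dimmer Rxrg probe spans -0.13 to 2.85 while the brighter one stays between 0.43 and 1.09, and the dimmer Rarb probe, which is not above background on any array, stays between -0.04 and 0.50. The dimmer Rxra probe is above background on 3 arrays.

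Marker genes differed between the captured compartments. Over 13 measured of 14 listed luminal epithelial markers the mean log2 ratio was 0.99 to 1.98 in KO stroma, 2.39 to 3.31 in WT stroma, 3.56 to 4.01 in KO epithelium and 3.26 to 3.56 in WT epithelium. Over 13 fibroblast markers, all measured, it was 2.91 to 3.21, 0.01 to 1.59, -3.05 to -0.31 and -2.02 to 0.88 in the same order of groups. The transgene product Wnt1, which mammary epithelium makes in this model, was 2.90 to 3.80 in KO stroma, 6.53 to 7.20 in WT stroma, 7.05 to 7.57 in KO epithelium and 7.14 to 7.67 in WT epithelium. Over 9 measured of 10 listed macrophage markers it was 3.34 to 3.81 in KO stroma, 1.25 to 2.61 in WT stroma, 0.52 to 1.68 in KO epithelium and 1.01 to 1.99 in WT epithelium. In KO against WT stroma 6 of 13 luminal markers were lower, where 2.87% of all genes were, and none higher. In the same comparison 4 of 13 fibroblast and 3 of 9 macrophage markers were higher, where 3.51% of all genes were, and 1 macrophage marker was lower. WT stroma 2 stood apart in lymphocyte markers. Its mean over 8 measured of 9 listed T and NK cell markers was 3.72, against at most 1.28 on the other arrays, and over 2 measured of 4 listed B cell markers it was 4.12, against at most 0.01. Without WT stroma 2 the KO-against-WT difference in stroma was 0.81 for Rarb (limma adjusted p = 0.677), 0.058 for Rara and -0.26 for Rxra, and 361 genes passed in place of 851. The part of these markers in any stromal result was not tested, and fewer cells of a type cannot be told apart from less RNA per cell. Arrays had Cy3 well above background on 36.0% to 46.3% of probes, and WT epithelium 3 had 211 non-uniform spots, against at most 16 on any other array.

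Genes around the receptors were described from 4 lists. Of 19 listed coregulators, 16 were measured, and none passed in any of the 5 comparisons. Of all genes 6.37% passed in KO against WT stroma, 20% between compartments of KO tumours, and at most 0.00749% in the others. Between compartments of KO tumours 4 coregulators passed with the Cy3 channel alone, where 4131 of 13351 genes did. Without KO tumour 1 there was 1, beside 1217 of 13351 genes, and without a filter on dim probes 1, beside 2602 of 20660. With probes averaged there was 1, beside 2639 of 13351, and with array weights 1, beside 2916 of 13351. The smallest p in KO against WT epithelium was that of Ncoa2, a p160 coactivator, at 0.80 (95% interval 0.31 to 1.29, limma adjusted p = 0.585). Ncoa2 gave 0.33, 0.84 and 0.71 in KO epithelium 1, 3 and 4, against -0.19, -0.14 and -0.19 in WT epithelium 1, 2 and 3. In stroma the smallest p was that of Ppargc1a (-1.24, 95% interval -2.65 to 0.17, limma adjusted p = 0.298). It was not well above background on any KO stroma array, so the fold between the group means is a bound, at least 2.08 with WT stroma higher. The interval includes no difference, so this is not a minimum established by the test. Between compartments of KO tumours the smallest p were those of Tbl1xr1 (-0.58, limma adjusted p = 0.0507) and Carm1 (0.48, limma adjusted p = 0.117). In WT tumours they were those of Med1 (-1.07, limma adjusted p = 0.514) and Crebbp (0.57, limma adjusted p = 0.651). The other 3 Med1 probes gave between -0.10 and 0.11.

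Other partners of the retinoid X receptors numbered 13, of which 11 were measured. In stroma against epithelium of KO tumours 1 rose and 1 fell, where 10.2% of all genes rose and 9.84% fell, and none passed elsewhere. The largest share elsewhere was 6.37% of all genes, in KO against WT stroma. Vdr, the vitamin D receptor, fell in KO stroma by -1.39 (SE 0.23, limma adjusted p = 0.0102). It gave -0.49, -0.32 and -0.11 in KO stroma 1, 3 and 4, against 0.83, 1.67 and 0.74 in KO epithelium 1, 3 and 4. Pparg, the receptor that drives fat cell differentiation, rose by 2.44 (SE 0.63, limma adjusted p = 0.0386), and was highest in KO stroma 3 at 1.25. Its call was lost when any 1 of the 3 KO tumours or WT tumour 1 was left out. In the same comparison 13 of 13 fibroblast and 2 of 6 adipocyte markers were higher and 12 of 13 luminal markers lower, and their part in the Vdr and Pparg results was not tested. In KO against WT stroma Vdr was at -1.09 (limma adjusted p = 0.0755) and the thyroid hormone receptor Thra at 0.93 (limma adjusted p = 0.145). A second Thra probe gave 0.34 (limma adjusted p over all kept probes = 0.625). In epithelium Ppara had the smallest p, at -0.77 (limma adjusted p = 0.608), with 2 other Ppara probes at -0.07 and -0.02.

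The genes of retinoid supply, binding and breakdown numbered 16, of which 13 were measured. In KO against WT stroma 1 fell and none rose, where 2.87% of all genes fell and 3.51% rose. It was Crabp2, which carries retinoic acid to the receptors in the nucleus, at -2.41 (95% interval -3.04 to -1.78, limma adjusted p = 0.0040). Crabp2 gave 1.89, 1.86 and 1.11 in KO stroma 1, 3 and 4, against 4.52, 3.77 and 3.80 in WT stroma 1, 2 and 3. In epithelium it gave 4.51, 3.88 and 3.99 in KO tumours 1, 3 and 4, against 4.0, 4.10 and 4.38 in WT tumours 1, 2 and 3. KO stroma was therefore apart from the other 3 groups, which overlapped. Between the compartments of KO tumours Crabp2 was lower in stroma by -2.50 (SE 0.27, limma adjusted p = 0.00286), and both calls were kept in every alternative run. The difference of the KO effect was -2.38 (limma adjusted p = 0.0657). The luminal markers and Wnt1 are lower on the same 3 KO stroma arrays, and their part in this result was not tested.

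In stroma against epithelium of the same KO tumours 1 gene of this list rose and 2 fell, where 10.2% of all genes rose and 9.84% fell. The cytosolic binding protein Crabp1 rose in stroma by 1.48 (SE 0.36, limma adjusted p = 0.0337). Its call was lost when any 1 of the 3 KO tumours or WT tumour 2 was left out. In KO against WT epithelium no gene of this list passed, where 0.00749% of all genes did. The smallest p was that of Cyp26b1, which breaks down retinoic acid. It was at 2.11 (95% interval 0.52 to 3.70, limma adjusted p = 0.611), with 1.75, 3.80 and 1.92 in KO epithelium 1, 3 and 4, against 1.34, 0.41 and -0.62 in WT epithelium 1, 2 and 3. Aldh1a2, which makes retinoic acid, was at 1.26 (-0.11 to 2.64, limma adjusted p = 0.640).

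Genes described elsewhere as targets of retinoic acid numbered 25, of which 17 were measured, some of them shared with the list above. In KO against WT stroma 1 rose, and Crabp2 fell, where 3.51% of all genes rose and 2.87% fell. In stroma against epithelium of KO tumours 3 rose and 2 fell, where 10.2% of all genes rose and 9.84% fell. Rarres2, which encodes the adipokine chemerin, rose by 5.81 (SE 0.85, limma adjusted p = 0.00696). It gave 6.33, 6.11 and 3.55 in KO stroma 1, 3 and 4, against 0.73, 1.25 and -3.44 in KO epithelium 1, 3 and 4. Meis2, which encodes a homeodomain protein, was at least 1.85-fold higher (limma adjusted p = 0.0147), a bound given because it was not well above background on any KO epithelium array. Such a bound sets the mean Cy3 signal of the bright group against that of the dim group. Each array of the dim group counts with its lowest signal among probes well above background, or with the probe's own signal if higher. Crabp2 was 1 of the 2 that fell. The Meis2 call was lost without KO tumour 1 or 4. The fibroblast, adipocyte and luminal marker shifts given beside Pparg fall in this comparison too, and their part in the Rarres2, Meis2 and Crabp1 results was not tested. None of the list passed in epithelium, between compartments of WT tumours, or for the difference of the KO effect. At most 0.00749% of all genes did so in these comparisons. The median KO-against-WT difference of the list was 0.45 in stroma and -0.33 in epithelium, beside -0.01 and 0.03 over all genes.

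The genes most like each receptor were found by Pearson correlation of the log2 ratio over the 12 arrays, among 13268 other genes. Arrays of a group and of a slide are not independent, and the values are given as a description. They were Reep3 (0.95), Osbpl5 (0.93) and Vegfc (0.93) for Rara, and Crybg2 (0.94), Tmem87b (0.90) and Srgap1 (0.89) for Rarb. For Rarg they were Csnk1d (0.94), Foxj3 (0.92) and Smo (0.87). For Rxra they were Slc6a8 (0.91), Ccdc144b (0.87) and Slc6a3 (0.84). Rxrb was most like Prpsap1 (0.98), Chd4 (0.95) and Rbck1 (0.93), and Rxrg most like Tasor (0.90), Prss53 (0.87) and Cisd3 (0.87). No receptor and no gene of the 4 lists is among these 18.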

How the data were processed

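The deposited files are the scanner output of 12 two-colour arrays, 1 per sample. Per the file headers they were made with Agilent Feature Extraction 10.7.3.1 and name mouse build mm9. Their spot intensity values, deposited for both dyes, are not normalized. Per the labels' protocols Cy3 holds the tumour sample and Cy5 the reference, with no dye swap. A value table of log2 ratios was also deposited by the authors; its epithelial columns correlated at -0.90 to -0.87 with the sample over reference ratio (direction reference over sample) and its stromal columns at -0.01 to 0.00 with their own arrays, so only the epithelial ones were used, as an alternative. Its centring is near 0 (column medians -0.05 to 0.05), and its scaling is not stated. The log10 ratio column, made by Agilent Feature Extraction per the file headers, served only to check direction.

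From the median signals and local background (the mean signals had been planned), normexp with offset 50 and loess within arrays, control spots at weight 0, gave log2 Cy3 over Cy5. Non-uniform spots were set missing and spots of a probe averaged, giving 55681 probes, of which 27294 were kept (well above background in Cy3 on at least 3 of 12 arrays) and 27235 could be named by matching unversioned accessions to RefSeq (GRCm38.p6). Each gene was represented by the kept probe of highest intensity, leaving 13351 genes, 2601 of them with more than 1 kept probe. Tests used limma 3.58.1 in R 4.3.3 with Benjamini-Hochberg adjustment and a threshold of 0.05. A model of 4 group means over 12 arrays gave KO against WT, and stroma with epithelium with tumour as a fixed block, paired by the genotypes and numbers that the titles give. Deviations from the group means correlated at 0.09 to 0.45 between compartments of a tumour and at -0.37 to 0.02 between other tumours of the genotype. Nothing more is said of how tumours were sampled, so p-values rest on the spread among the samples at hand. The tests were checked on simulated data.

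Named genes are the receptors with all their probes, the 3 genes most like each, and for each list up to 4 called genes with the smallest p in a comparison, or 2 if none was called; a few such genes are given by count only, and some are not reported here. Members and lists were chosen with earlier results of these data known. Promoter windows come from RefSeq.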

Additional observations from a re-analysis of the deposited data

How the results depend on the processing

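None of the 6 receptors passed in any of the 5 comparisons under any of the 80 pairs of comparison and alternative run, and the lowest limma adjusted p among 475 recomputed fold changes was 0.0697. Of these fold changes 40 changed sign, all of them uncalled, 24 of them when an array or tumour was left out, and the cause was not tested. In KO against WT epithelium Rarb was 0.10 with the number in the titles as a replicate block. In stroma, median centring in place of loess gave Rarg -0.012, Rxrb -0.19 and Rxrg -0.14, the Cy3 channel alone gave Rarg -0.028, and the number block gave Rxrg -0.011. Between compartments of KO tumours Rxrb was -0.0030 with Agilent's processed signals, -0.31 with median centring and -0.18 with Cy3 alone, where Rxra was 0.25. In WT tumours Rxrb was -0.10 with median centring, Rarb -0.093 with Cy3 alone and -0.066 with array weights, Rarg 0.18 with Cy3 alone, and Rxrg 0.081 with probes averaged. For the difference of the KO effect Rara was -0.024 with probes averaged. Median centring moved the median of all genes in KO against WT epithelium to -0.17, against 0.03 with loess.

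Leaving out 1 array or tumour in turn gave these ranges where a sign changed. KO against WT epithelium ranged from -0.16 to 0.58 for Rara and -0.60 to 0.64 for Rarb. Stroma ranged from -0.070 to 0.51 for Rarg, -0.084 to 0.40 for Rxrb and -0.064 to 0.097 for Rxrg. Stroma against epithelium in KO ranged from -0.30 to 0.23 for Rxra, -0.18 to 0.19 for Rxrb and -0.0015 to 0.19 for Rxrg. In WT it ranged from -0.14 to 0.99 for Rara, -0.26 to 0.68 for Rarb, -0.69 to 0.45 for Rarg and -0.13 to 0.33 for Rxrb. The difference of the KO effect ranged from -0.43 to 0.70 for Rara, -0.89 to 0.24 for Rarg and -0.35 to 0.16 for Rxrb.

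Counts over all genes moved more. Of 851 genes in KO against WT stroma (468 higher, 383 lower), 201 passed with median centring (50 higher, 151 lower), 292 with the 6 stroma arrays alone, 638 with Agilent's processed signals (288 higher, 350 lower), and 175 to 887 with an array left out. Between compartments in KO 2671 passed, 1530 with median centring, 4131 with Cy3 alone (1657 higher, 2474 lower), and 1095 to 2718 with a tumour left out. The difference of the KO effect had 0 to 144 genes. With tumour as a random replicate block 824 genes passed in stroma, and 0 receptors, and the block changed no receptor call. KO and WT tumours share only numbers 1 and 3, whose deviations correlated from -0.30 to 0.30. Among the genes around the receptors, Crabp2 in both comparisons and Vdr and Rarres2 between compartments of KO tumours passed under every alternative that gave them a value. Crabp1 between compartments of KO tumours did not pass with Agilent's processed signals, median centring or no tumour block. Pparg did not pass with median centring, without a filter on dim probes or with every kept probe tested on its own.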
